A study of Mus musculus with 6 samples.

Results

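The 49 genes described here encode the machinery that shortens, decaps and degrades mRNA. They were chosen by symbol from the 16253 genes measured: the subunits of the CCR4-NOT and PAN2-PAN3 deadenylases, the decapping enzymes and their enhancers, the Lsm ring, the 5′-to-3′ exonucleases Xrn1 and Xrn2, the RNA exosome with the Dis3 family of nucleases, and the factors of nonsense-mediated decay. The symbol came from the gene number in the name of each probe set, and each of the 49 had 1 probe set. The rule uses no measured value, but it was chosen with earlier results of these data known. Of 52 mouse protein-coding genes whose symbols fit the rule, Cnot1, Lsm5 and Lsm7 were not analysed here.

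E14Tg2a.4 cells, which are mouse embryonic stem cells, were kept on gelatin in M15 medium and lipofected. The 6 expression arrays form 3 groups of 2: cells given Fip1l1 siRNA 2, cells given Fip1l1 siRNA 3, and mock cells given the lipid reagent with no siRNA. RNA was taken on day 4 from all of them. No group carries a non-targeting siRNA, so an effect of siRNA delivery and an effect of Fip1 depletion cannot be told apart. The labels do not say whether replicates came from separate cultures, so the p-values cover only how far these samples scatter, and part of that scatter may be technical. Values are log2 probe set levels made with RMA.

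In the textbook account, the poly(A) tail that protects an mRNA is added in the nucleus after cleavage of the transcript at a poly(A) site, and Fip1 is a subunit of the complex that recognises that site. Decay in the cytoplasm usually starts with removal of the tail by PAN2-PAN3 and CCR4-NOT. The body of the mRNA is then either decapped and degraded from the 5′ end by Xrn1, or degraded from the 3′ end by the exosome, whose barrel of core subunits has no activity of its own in mammals and relies on attached nucleases. Nonsense-mediated decay feeds transcripts that terminate translation too early into the same enzymes.

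Fip1l1 mRNA, the target of both siRNAs, stood at 9.65 and 9.74 in mock cells, against 8.26 and 7.79 under siRNA 2 and 8.39 and 7.86 under siRNA 3 (replicates 1 and 2 in this order throughout). All 4 siRNA arrays lay below the mock arrays, and 32.5% of the mock level remained (95% interval 24.6 to 43.0%). The 8 stem cell markers examined, among them Pou5f1, Nanog and Sox2, had mean levels of 9.85 to 14.5, and none passed the test in limma (1 higher and 1 lower with the replicate block). The mean log2 level of 8 fibroblast markers was 4.28 to 4.45 on the siRNA arrays and 4.27 to 4.38 on the mock arrays, with none past the threshold in either fit. That of 6 trophectoderm markers was 6.52 to 6.89 against 6.19 to 6.66, with a positive difference for 6 of 6, none past the threshold (2 with the block). That of 6 primitive endoderm markers was 5.32 to 5.94 against 5.37 to 5.88, with none past the threshold (1 lower with the block, Sox17). The part of these cells in the results was not tested.

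After Fip1 depletion the decay machinery as a whole stayed close to the share of change seen across all genes. The members that passed in the fit without a replicate block were all lower (13 passed with the block, 3 of them higher). Without the block, 6 of the 49 members fell, 0 rose and 43 did not pass. This was for the mean of both siRNAs against mock (limma, adjusted p under 0.05, over 16253 genes). The members that fell were the 3′-to-5′ exonucleases Dis3l2 and Dis3, the CCR4-NOT subunits Cnot10 and Cnot9, the scavenger decapping enzyme Dcps and the exosome core subunit Exosc8. These 6 are 12.2% of the members, where 10.1% of all genes tested passed. In the lower direction the share was 12.2% against 6.08% of all genes, and in the higher direction 0 against 4.07%. The share was larger at the members' log2 values: among the 2882 genes between the 25th and 75th percentile of those values (8.05 to 9.96), 17.5% passed, 10.7% lower and 6.73% higher. The share of falls over all members, 12.2%, was near the 10.7% in this range, and the share of rises, 0, was below its 6.73%. This range leaves out the brightest and dimmest members. Of the members that fell, Cnot9 and Cnot10 lay inside it, Dis3l2 below it, and Dcps, Exosc8 and Dis3 above it.

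Samples with the same replicate number deviated together, and the fit with the replicate number as a block called 13 members, 10 lower and 3 higher, beside 19.7% of all genes (11.4% lower, 8.31% higher). Those added by the block were Cnot8, Exosc3, Dis3l and Edc3, which were lower, and Cnot6l, Upf3b and Xrn2, which were higher. Without mock replicate 2 only Dis3l2 passed, and without mock replicate 1 or siRNA 2 replicate 2 only Dis3l2 and Dis3. Without siRNA 2 replicate 1 it was these and Cnot10. Since probe positions were not used here and the depleted protein acts at poly(A) sites, a changed transcript end and a changed mRNA level cannot be told apart for any gene below. Nor can fewer cells of a type and less RNA per cell.

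**Figure D1:**
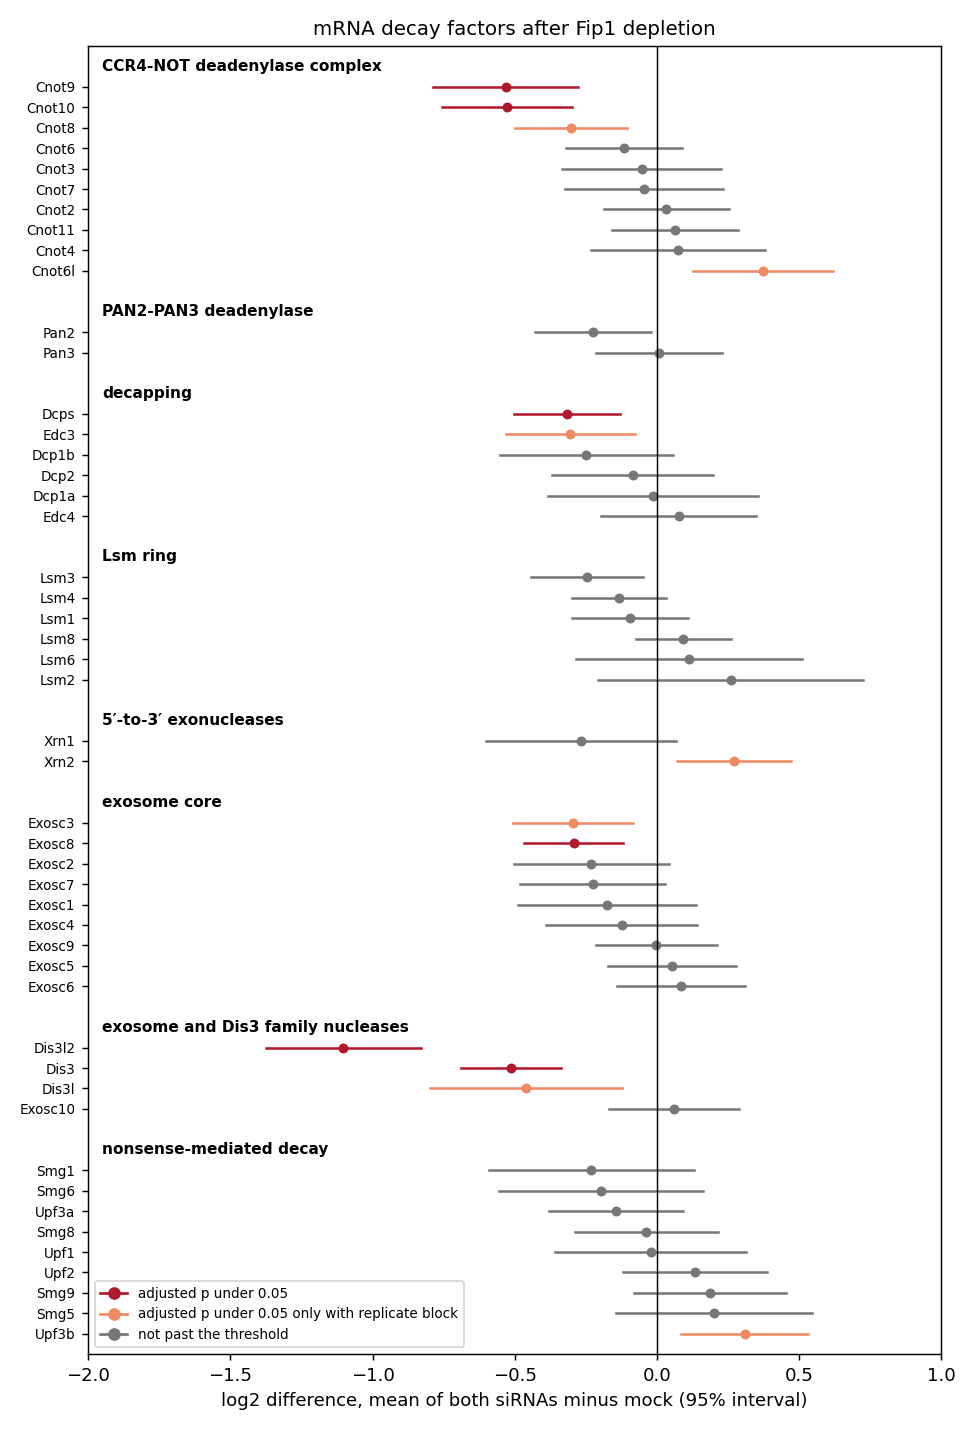
Log2 difference of 48 of the 49 members, mean of both siRNAs minus mock, with its 95% interval from limma, ordered by role and then by size. The 6 members past the threshold (dark red) all lie below 0, from Dis3l2 at -1.10 to Exosc8 at -0.29. The 7 that passed in the fit with the replicate block but not in the fit without it (orange) lie on both sides.

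The member with the largest fall belongs to the Dis3 family, and a second member of the family also fell. These are 3′-to-5′ exonucleases: Dis3 is the catalytic subunit bound to the nuclear exosome, Dis3l its counterpart on the cytoplasmic exosome, and Dis3l2 works without the exosome, with a preference for RNAs tailed with uridines. Dis3l2 was 5.96 and 5.86 in mock cells, 4.68 and 4.78 with siRNA 2, and 4.93 and 4.83 with siRNA 3. The groups were separated by almost a whole log2 unit, and both siRNAs gave similar values. Dis3l2 fell by 1.10 on the log2 scale (SE 0.119, limma adjusted p = 0.00172), which left 46.6% of the mock level (95% interval 38.6 to 56.2%), and its call held whichever 1 array was left out (adjusted p 0.00254 to 0.0241). Set against its same-numbered mock array, each siRNA array gave a difference, -1.28 and -1.07 for siRNA 2 and -1.03 and -1.02 for siRNA 3. Its level in mock, 5.91 on average, lay above the 25th percentiles of all probe sets there (4.18 and 4.25) but below the medians of both mock arrays. The siRNA values, 4.68 to 4.93, lay within the range of the fibroblast marker Dcn on the siRNA arrays. How far they stood above background was not tested, since no detection calls were used. RMA also compresses changes of dim probe sets, so the percentage remaining is uncertain.

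Dis3 was 11.45 and 11.53 in mock cells, 10.95 and 10.97 with siRNA 2, and 11.05 and 10.94 with siRNA 3. Every siRNA array lay below both mock arrays. Dis3 fell by 0.51 (SE 0.0770, adjusted p = 0.00581), leaving 70.0% of the mock level (95% interval 62.0 to 79.1%). Its call ended only without mock replicate 2 (adjusted p = 0.0740). Dis3l was 6.85 and 7.18 in mock, 6.69 and 6.38 with siRNA 2, and 6.61 and 6.52 with siRNA 3. The groups did not overlap, but the mock arrays differed from each other by more than in Dis3 or Dis3l2. Its difference was -0.46 (SE 0.148, adjusted p = 0.0906, or 0.0434 with the block), so Dis3l passed only with the block. Against the mock array of the same number it differed by -0.16 and -0.24 in replicate 1 and by -0.80 and -0.66 in replicate 2. The remaining nuclease of the exosome, Exosc10, which is nuclear, had a difference of 0.06 (95% interval -0.17 to 0.29) and did not pass.

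Of the 9 core subunits of the exosome, all measured, 1 fell, 0 rose and 8 did not pass, with 7 negative differences and a median of -0.18, where the median of all genes was -0.00106. Exosc8, a subunit of the 6-membered ring, was 11.28 and 11.26 in mock, 10.95 and 11.05 with siRNA 2, and 10.97 and 10.94 with siRNA 3. It was lower on every siRNA array by an amount of the order of 0.3. Exosc8 fell by 0.29 (SE 0.0755, adjusted p = 0.0449), a call that ended whichever 1 array was left out (adjusted p 0.0769 to 0.200) and after centring of the arrays (0.0582). Exosc3, an RNA-binding subunit of the cap of the barrel, had a difference of -0.29 (adjusted p = 0.0854, or 0.0318 with the block). The other core subunits ran from -0.23 (Exosc2) to 0.08 (Exosc6).

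Among the deadenylases, the CCR4-NOT subunits Cnot10 and Cnot9 fell, while the other subunits outside the catalytic pairs did not pass. CCR4-NOT is the main deadenylase of the cytoplasm. Of its 10 subunits measured 2 fell, 0 rose and 8 did not pass, where 10.7% of the genes at log2 values of 8.05 to 9.96 fell. Cnot10, which with Cnot11 forms a module at the end of the scaffold, was 10.14 and 10.12 in mock cells, 9.68 and 9.54 with siRNA 2, and 9.72 and 9.48 with siRNA 3. The mock values nearly coincided and all siRNA values lay below them. Cnot10 fell by 0.53 (SE 0.100, adjusted p = 0.0145), leaving 69.3% (95% interval 59.2 to 81.3%), and its call ended without mock replicate 1 (0.0776), mock replicate 2 (0.107) or siRNA 2 replicate 2 (0.0527). Its partner Cnot11 had a difference of 0.06 (SE 0.0968).

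Cnot9, a subunit that contacts RNA-binding proteins and the GW182 proteins of microRNA silencing, was 9.65 and 9.52 in mock, 9.04 and 9.11 with siRNA 2, and 9.18 and 8.89 with siRNA 3. The siRNA arrays again lay below both mock arrays. Cnot9 fell by 0.53 (SE 0.112, adjusted p = 0.0213), leaving 69.2% (95% interval 58.0 to 82.6%). Its call ended without either mock array (0.124 and 0.100) or either siRNA 2 array (0.0634 and 0.0592).

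**Figure D2:**
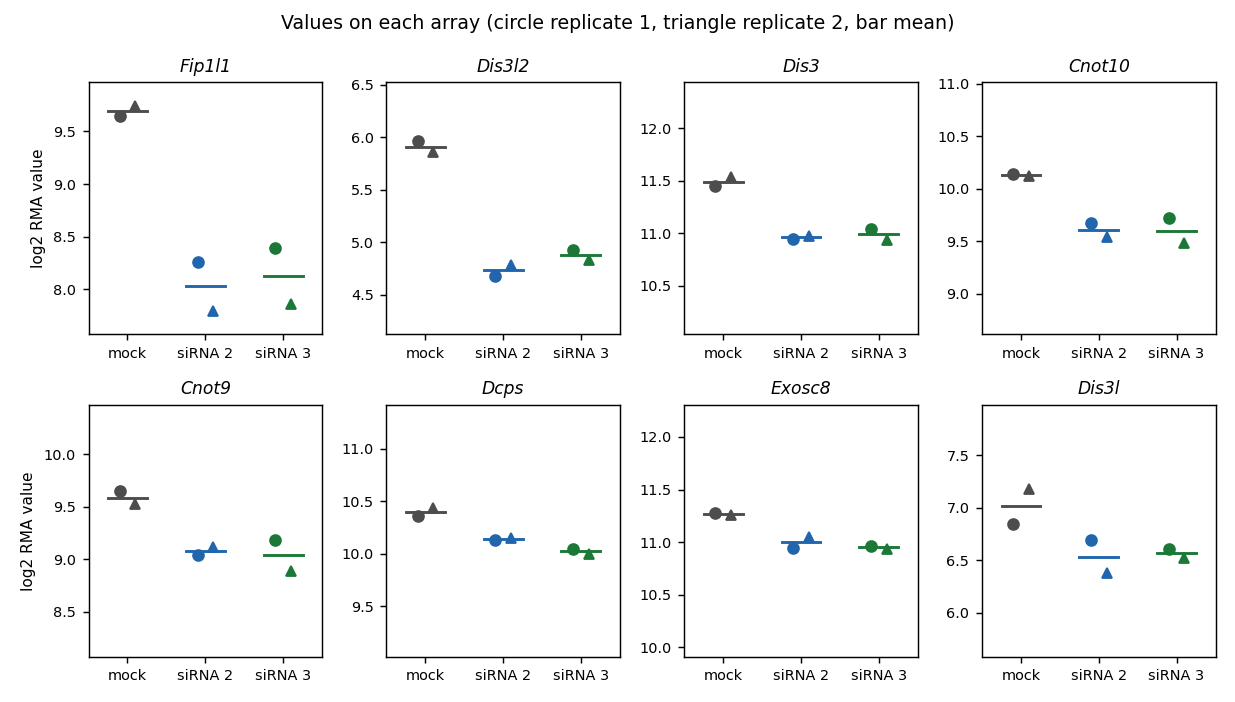
Log2 RMA value on each array (circle replicate 1, triangle replicate 2, bar the group mean) for Fip1l1, the 6 members that fell and Dis3l; each panel spans the same number of log2 units around its own centre. In every panel the 4 siRNA arrays lie below both mock arrays, and the step is widest for Fip1l1 and Dis3l2.

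The catalytic subunits of CCR4-NOT come as paralogue pairs, and the members of a pair had different values. Of the EEP-type nucleases, Cnot6l had a difference of 0.37 (95% interval 0.13 to 0.62, adjusted p = 0.0663, or 0.0171 with the block) and Cnot6 of -0.12 (-0.32 to 0.09). Cnot6l was 7.62 and 7.71 in mock, 7.97 and 8.05 with siRNA 2, and 7.97 and 8.14 with siRNA 3, so its siRNA arrays all lay above mock. Of the DEDD-type nucleases, Cnot8 had a difference of -0.30 (95% interval -0.50 to -0.10, adjusted p = 0.0639, or 0.0231 with the block) and Cnot7 of -0.05 (-0.32 to 0.23). The difference between paralogues was not tested, and the probe sets of close paralogues may share signal. The scaffold partners Cnot2 (0.03) and Cnot3 (-0.05) and the ubiquitin ligase Cnot4 (0.07) did not pass. In the other deadenylase, which trims long tails, the nuclease Pan2 had a difference of -0.22 (adjusted p = 0.166, or 0.0750 with the block) and its adaptor Pan3 of 0.01.

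Of the 6 decapping genes 1 fell and 5 did not pass. Dcps, which hydrolyses the cap left on the short fragment after 3′-to-5′ decay, was 10.36 and 10.43 in mock, 10.13 and 10.15 with siRNA 2, and 10.05 and 9.9996 with siRNA 3. All siRNA values lay below mock, by a small step. Dcps fell by 0.32 (SE 0.0811, adjusted p = 0.0442), leaving 80.3% (95% interval 70.6 to 91.3%). Its call ended whichever 1 array was left out (adjusted p 0.0767 to 0.245), after centring (0.0578), after repeated quantile normalization (0.0563) and with no trend in the prior variance (0.0777). The last 2 settings also ended the call of Exosc8 (0.0856 and 0.101).

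The decapping enzyme Dcp2, which acts on intact deadenylated mRNA, had a difference of -0.08 (95% interval -0.37 to 0.20). Its activators Dcp1a (-0.01, interval -0.38 to 0.36) and Dcp1b (-0.25, -0.55 to 0.06) did not pass. Of the enhancers of decapping, Edc3 had a difference of -0.30 (adjusted p = 0.0956, or 0.0258 with the block) and the scaffold Edc4 of 0.08. Of the Lsm proteins, whose cytoplasmic ring (with Lsm1) binds deadenylated 3′ ends and whose nuclear ring (with Lsm8) binds U6 RNA, 0 of 6 measured passed, nor did any with the block. Their differences ran from -0.25 (Lsm3, the smallest adjusted p, 0.118) to 0.26 (Lsm2), with 5 of the 6 at an unadjusted p above 0.05. Of all genes, 10.1% passed, or 19.7% with the block.

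The 5′-to-3′ exonucleases had opposite signs. The nuclear enzyme Xrn2, which degrades the downstream RNA after cleavage at a poly(A) site and so takes part in transcription termination, was 9.81 and 9.90 in mock, 10.19 and 10.15 with siRNA 2, and 10.01 and 10.15 with siRNA 3. All siRNA arrays lay above both mock arrays. The difference of Xrn2 was 0.27 (SE 0.0876, adjusted p = 0.0928, or 0.0324 with the block). The cytoplasmic enzyme Xrn1 was 7.20 and 6.96 in mock, 6.43 and 6.81 with siRNA 2, and 7.06 and 6.95 with siRNA 3. These groups overlapped, and its difference of -0.27 (SE 0.147, adjusted p = 0.323) did not pass.

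Nonsense-mediated decay factors showed no call in limma: 0 of 10 passed (1 higher with the block), beside 10.1% of all genes (8.31% higher with the block). The median difference was 0.06, and 1 of the 10 had an unadjusted p under 0.05, beside 24.0% of all genes. The exception was Upf3b, which bridges Upf2 and the exon junction complex. It was 9.76 on both arrays in mock, 10.07 and 10.20 with siRNA 2, and 9.88 and 10.11 with siRNA 3, each siRNA value above both mock values. Its difference was 0.31 (95% interval 0.09 to 0.53, adjusted p = 0.0874, or 0.0220 with the block), and that of its paralogue Upf3a was -0.14 (-0.38 to 0.09, adjusted p = 0.458). The helicase Upf1, the central factor of the pathway, was 7.92 and 7.64 in mock and 7.51 to 8.09 over the siRNA arrays, with overlap and a difference of -0.02 (95% interval -0.36 to 0.31). Smg1, the kinase of Upf1, had -0.23, the endonuclease Smg6 -0.20 and Smg5, an adaptor that binds phosphorylated Upf1, 0.20, and none of these passed.

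**Figure D3:**
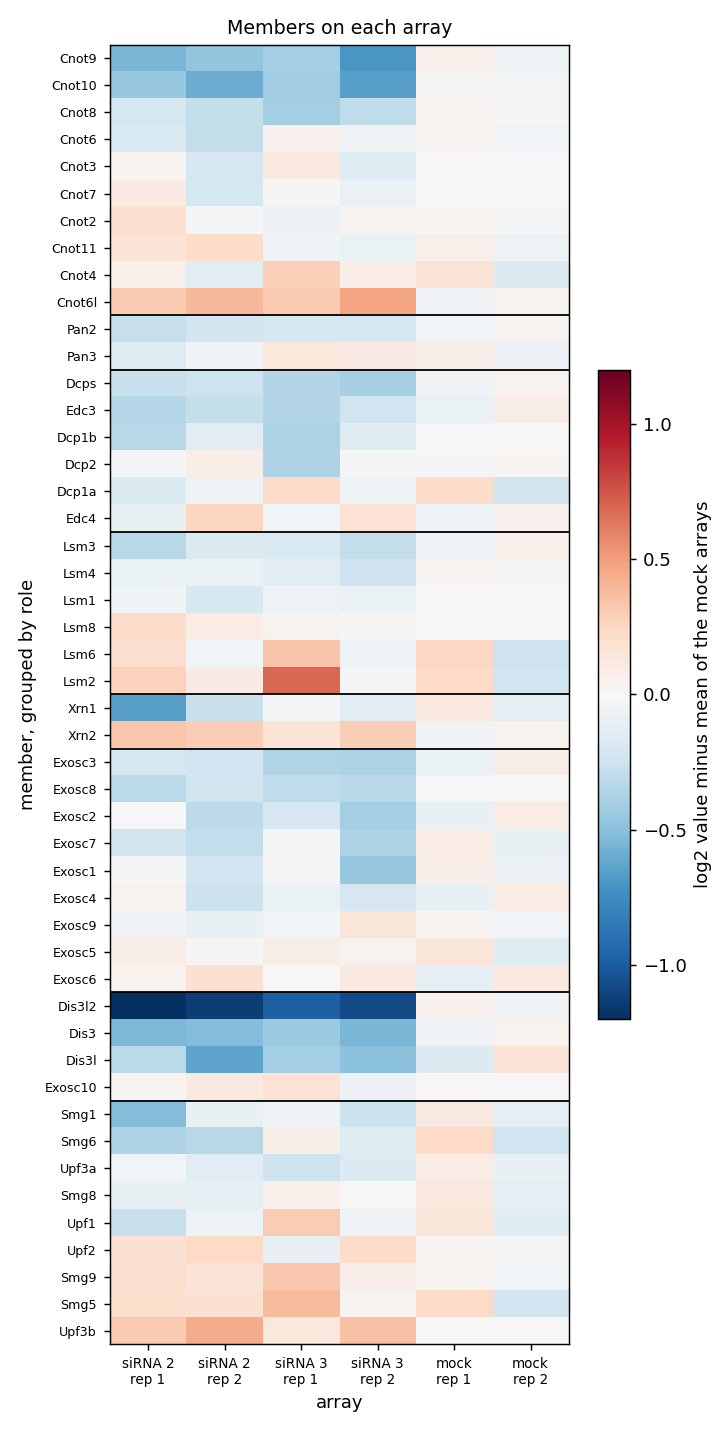
Log2 value of each of 48 members (rows, grouped by role) on each array (columns) minus the mean of the mock arrays, blue for lower and red for higher. The rows of Dis3l2, Dis3, Cnot9 and Cnot10 are blue on all 4 siRNA arrays, while nonsense-mediated decay factors show both colours.

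Counted by array, 15 of the 49 members had all 4 siRNA values below both mock values, 5 had all 4 above, and 29 overlapped. These are 30.6% and 10.2%, where 18.1% and 15.1% of all genes were separated in these directions. Of the genes at log2 values of 8.05 to 9.96 it was 26.2% and 20.1%. The median difference of the members was -0.08, and 31 of 49 differences were negative, where 50.3% of all genes were. The median of the members that did not pass was -0.04.

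**Figure D4:**
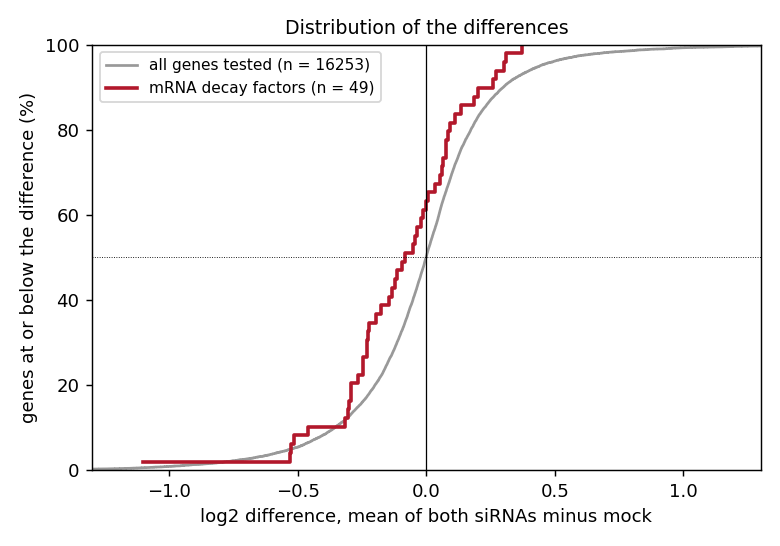
Cumulative share of genes (vertical axis, %) at or below each log2 difference (horizontal axis) for the 49 members and all 16253 genes tested. The members' line lies to the left of the other over the middle of the range (medians -0.08 and -0.00106), and no member exceeds 0.37.

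The comparisons of each siRNA share the mock arrays. With siRNA 2, Dis3l2 (-1.18), Dis3 (-0.53) and Cnot10 (-0.52) fell and none rose, 3 of 49 beside 6.77% of all genes (3.95% lower, 2.82% higher). With siRNA 3, Dis3l2 (-1.03), Cnot9 (-0.55), Cnot10 (-0.53) and Dis3 (-0.50) fell and none rose, 4 of 49 beside 5.81% of all genes (3.52% lower, 2.29% higher). The difference of Cnot9 with siRNA 2 was -0.51 (adjusted p = 0.0519). With the block 9 members passed for siRNA 2, 3 of them higher, and 9 for siRNA 3, 1 of them higher, beside 16.7% (9.67% lower, 7.05% higher) and 13.8% (8.18% lower, 5.61% higher) of all genes. Tested directly, siRNA 2 minus siRNA 3 gave 0 calls in limma, with or without the block, among members and among all genes. At an unadjusted p under 0.05 there was 1 member, Cnot6 (-0.24, 95% interval -0.48 to -0.00485, adjusted p = 0.982), and 3 with the block. For Dis3l2 the difference between the siRNAs was -0.15 with an interval of -0.46 to 0.16, which spans 0.

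The promoter sequences of the 4 members with the largest falls are shown so that their start regions can be set beside each other. Each is the 200 bases before the annotated start of the gene, on its own strand, from RefSeq on GRCm38.p6. Dis3l2 is at chr1:86703604-86703803 (+), Cnot9 at chr1:74505860-74506059 (+), Cnot10 at chr9:114640201-114640400 (-) and Dis3 at chr14:99099771-99099970 (-). Capitals mark matches on either strand to 5 short motifs. The GC box of Sp1 was searched as GGGCGG. The CCAAT box was searched by these same letters. The E-box was searched as CACGTG. The core of ETS factor sites was searched as CCGGAAG. The TATA box was searched as TATAAA.
Dis3l2: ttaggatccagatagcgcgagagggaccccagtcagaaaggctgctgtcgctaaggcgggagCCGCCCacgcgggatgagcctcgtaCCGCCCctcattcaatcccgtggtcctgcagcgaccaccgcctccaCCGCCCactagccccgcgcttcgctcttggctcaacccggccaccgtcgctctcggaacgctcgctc
Cnot9: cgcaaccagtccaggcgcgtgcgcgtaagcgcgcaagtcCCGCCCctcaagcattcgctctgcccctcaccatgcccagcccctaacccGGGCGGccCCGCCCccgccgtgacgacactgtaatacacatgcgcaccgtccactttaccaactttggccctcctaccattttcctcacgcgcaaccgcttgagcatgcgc
Cnot10: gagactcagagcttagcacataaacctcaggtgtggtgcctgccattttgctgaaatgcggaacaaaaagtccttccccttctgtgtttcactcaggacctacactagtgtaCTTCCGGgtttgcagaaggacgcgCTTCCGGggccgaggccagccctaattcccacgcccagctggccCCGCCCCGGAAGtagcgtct
Dis3: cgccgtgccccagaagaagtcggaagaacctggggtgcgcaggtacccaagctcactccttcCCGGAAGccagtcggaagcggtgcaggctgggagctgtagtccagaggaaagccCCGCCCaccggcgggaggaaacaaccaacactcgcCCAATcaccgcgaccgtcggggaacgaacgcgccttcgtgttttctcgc
Each of the 4 holds a GC box: 3 matches in Dis3l2, 3 in Cnot9, 1 in Cnot10 and 1 in Dis3. Cnot10 has 3 matches to the ETS core, of which the last shares a base with the GC box, and Dis3 has 1 and also 1 CCAAT box. Over the 51 starts listed for 42 of the 49 members, a GC box was in 66.7%, against 31.0% of all 32851 listed starts. The ETS core was in 15.7% against 6.29%, the CCAAT box in 27.5% against 29.3%, the E-box in 3.92% against 5.26% and the TATA box in 0 against 9.96%. The members' promoters were also richer in G and C (median 64.5% against 53.0%). These shares are over members that passed and members that did not, and a match is only a match of letters.

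Genes that work beside the members were read from 6 further lists: other deadenylases, recruiters of deadenylation, decapping cofactors, exosome cofactors, exon junction and termination factors, and proteins that bind or uridylate poly(A) tails. Of 67 measured genes (82 were listed) 5 rose, 1 fell and 61 did not pass, 8.96% beside 10.1% of all genes. Their median difference was 0.04. The lists, too, were chosen with earlier results of these data known. With the block 7 of the 67 were higher and 5 lower, beside 8.31% and 11.4% of all genes.

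Patl2, a germline relative of the decapping activator Pat1, was 8.74 in both mock samples, 7.48 and 7.64 with siRNA 2, and 7.20 and 7.80 with siRNA 3. It fell by 1.21 (SE 0.163, adjusted p = 0.00386), leaving 43.2%, in a list in which the other 9 of 10 decapping cofactors, Ddx6 (0.16) and Patl1 (0.05) among them, did not pass. Its call held whichever 1 array was left out (0.00119 to 0.0490). Wdr61, a subunit of the Ski complex that feeds mRNA to the cytoplasmic exosome and also of the Paf1 complex, was 11.05 and 11.12 in mock and 11.57 to 11.80 over the siRNA arrays. It rose by 0.63 (SE 0.0862, adjusted p = 0.00399), also whichever 1 array was left out (0.00215 to 0.0421). The other Ski subunits, the helicase Skiv2l (-0.35, adjusted p = 0.165) and Ttc37 (-0.15), did not pass, as was the case for 12 of 13 exosome cofactors. Mtrex, the helicase of the nuclear exosome, had a difference of -0.25 (adjusted p = 0.0686, or 0.0255 with the block).

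Btg2, an antiproliferative protein that recruits and activates CCR4-NOT and a known p53 target, was 8.23 and 8.30 in mock and 8.67 to 8.81 over the siRNA arrays. It rose by 0.48 (SE 0.0998, adjusted p = 0.0198), 1 of 16 recruiters measured, where 4.07% of all genes rose. Its call ended without siRNA 2 replicate 2 (0.0697) or either mock array (0.101 and 0.106). Noct, a relative of the Cnot6 nucleases, rose by 0.31 (SE 0.0835, adjusted p = 0.0495), 1 of 7 genes in the list of other deadenylases. This call ended with no trend in the prior variance (limma adjusted p = 0.109) and over all probe sets (0.0536). Casc3, a core component of the exon junction complex, rose by 0.61 (SE 0.139, adjusted p = 0.0289), and so did Magohb, another core component, by 0.38 (SE 0.0991, adjusted p = 0.0478). These were 2 of 10 in their list, again beside 4.07% of all genes. The call of Magohb ended with no trend in the prior variance (limma adjusted p = 0.0624). Magohb and Magoh are nearly identical, so their probe sets may share signal; Magoh had a difference of -0.06. The calls of Noct and Magohb ended whichever 1 array was left out (0.0514 to 0.289). That of Casc3 ended without either siRNA 2 array, siRNA 3 replicate 1 or mock replicate 2 (0.0516 to 0.216). None of 11 genes that bind or uridylate the tail passed in limma (2 lower with the block), and 1 of them, Paip2, had an unadjusted p under 0.05.

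**Figure D5:**
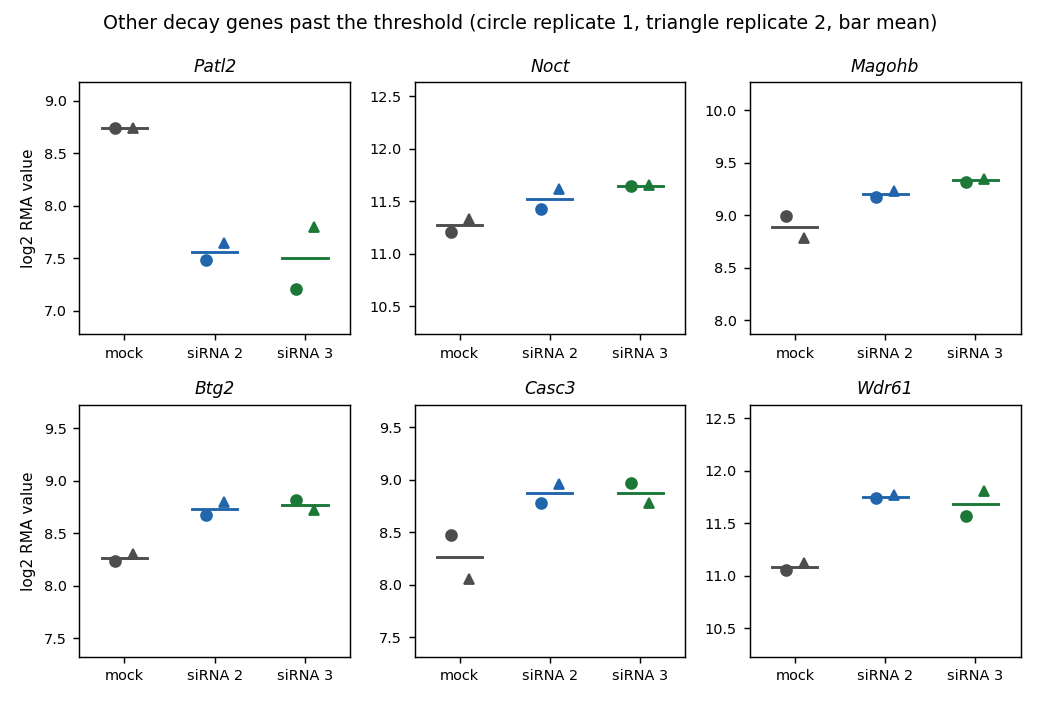
Log2 RMA value on each array (circle replicate 1, triangle replicate 2, bar the group mean) for the 6 genes of the further lists that passed the threshold; each panel spans the same number of log2 units around its own centre. Patl2 lies lower on the 4 siRNA arrays than in mock, and Noct, Magohb, Btg2, Casc3 and Wdr61 lie higher.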

How the data were processed

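Gene expression was measured on Affymetrix mouse arrays, 1 per sample. The authors deposited log2 values, 1 per probe set, from RMA (per the submitters' processing notes), which corrects background, normalizes between arrays and compresses changes near background and saturation. How RMA was run and how probe sets were defined is not given in the sources used here. Detection calls were not used, and the small number of arrays limits precision. Array medians were 6.08 to 6.12, so no scaling was added.

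The table holds 16556 probe sets. The number in the probe set name equals the platform annotation's gene number for 15250 of the 15270 probe sets listed there. It named 988 more, 3 of them members, through a gene table of GRCm38.p6, and 298 stayed unnamed. The brightest probe set was kept for each of 16253 genes.

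All 6 arrays entered one limma model (3.58.1, R 4.3.3) of 3 group means, with a trend of the prior variance. Mock was compared with the average of the siRNA groups and with each of them, and siRNA 2 with siRNA 3. P-values are two-sided, adjusted by Benjamini-Hochberg over all genes, with a threshold of 0.05; intervals cover 95%.

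Replicate numbers share a suffix of the titles, and deviations from group means correlated at 0.382, 0.283 and 0.439 between groups, so they were taken to pair the samples; a second fit has them as a block. The alternatives were other scalings, filters on level, no variance trend, averaged probe sets, all probe sets and leaving out each array.

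Full values are given for members past the threshold, and values for members past it with 1 siRNA or with the block, with a difference of at least 0.3, or in 5 paralogue pairs, and others for context; 1 member is counted but not reported here by name; of each further list those that passed are named, at most 5, with some neighbours outside this rule. Members and lists were chosen with earlier results of these data known. Figures were drawn with matplotlib 3.10.9.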

Additional observations from a re-analysis of the deposited data

How the results depend on the processing

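With 2 arrays a group, single arrays decide most calls. The count of members past the threshold was 6 for both siRNAs, 3 for siRNA 2 and 4 for siRNA 3. With the replicate block it was 13, 9 and 9, where the block itself cannot alter a difference, since each group holds both replicate numbers. Without 1 array it ranged from 1 to 4 for both siRNAs, from 0 to 4 for siRNA 2 and from 1 to 4 for siRNA 3; it was 1 for both siRNAs without mock replicate 2 and 0 for siRNA 2 without siRNA 2 replicate 2. With no trend in the prior variance it was 2 for siRNA 3. Without genes under the median of level it was 7 for both siRNAs, 6 lower and 1 higher. In that setting Cnot8 (lower) and Cnot6l (higher) also passed (limma adjusted p = 0.0426 and 0.0439), and Dis3l2 was not among the genes tested. No alternative gave a call between the siRNAs. Of 369 values of named genes under alternatives, 307 kept their direction and side of the threshold. This total overstates stability, since it includes settings that could hardly move a call, such as averaged probe sets (25 kept, 0 moved). Calls were lost most often without mock replicate 2. Direction could change only with other scalings or without 1 array, since the other alternatives left the differences of the named genes as they were. The reversed ones were near 0: Dcp1a (0.00650 after centring on array medians, and -0.23 to 0.21 without 1 array) and Cnot7 (-0.12 to 0.0341 without 1 array). Limiting the test to genes listed by the platform annotation, an alternative chosen after seeing the data, left the 6 calls as they were.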

Other observations

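Beside the members, some genes of the further decay lists passed with the replicate number as a block but not in the fit without it. Lin28a, which recruits uridylation to let-7 precursors in stem cells, had a difference of -0.43 (limma adjusted p = 0.363, or 0.0241 with the block), Gspt1, the release factor eRF3a, of -0.29 (0.134, or 0.0211) and Paip2, an inhibitor of poly(A)-binding protein, of -0.30 (0.0618, or 0.0245). Cpeb1, which binds the cytoplasmic polyadenylation element, had a difference of 0.44 (0.188, or 0.0294), and Zfc3h1, a subunit of the poly(A) tail exosome targeting connection, of 0.39 (0.102, or 0.0414).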
